A study of Mus musculus with 6 samples.

Results

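The guanylate-binding proteins of the mouse are encoded mainly by a pair of gene clusters, and transcripts of 10 of them were measured in long-term haematopoietic stem cells (LT-HSC) with and without the transcriptional regulator Prdm16. The 10 genes were taken by name from the 27179 genes of the deposited table after their gene IDs were matched to symbols. The 6 members on chromosome 5 are Gbp4, Gbp6, Gbp8, Gbp9, Gbp10 and Gbp11, and the 4 on chromosome 3 are Gbp2, Gbp3, Gbp5 and Gbp7. They were singled out because the clusters had been seen to differ between knockout and control in these same libraries. Their levels, fold changes, standard errors, intervals and group overlaps are therefore a description, and none of these values is a test of a difference.

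Guanylate-binding proteins are large GTPases of the dynamin superfamily whose genes are switched on by interferons, most strongly by interferon-gamma. Interferon receptors signal through Jak kinases, and the factor Irf1 acts at the promoters of these genes. The proteins assemble on the vacuoles of intracellular parasites and on bacteria in the cytosol, help to break them open, and feed into inflammasomes and cell death. Haematopoietic stem cells respond to interferon themselves, which can bring quiescent cells into cycle.

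The libraries came from C57BL/6 mice, aged 8 to 12 weeks, that were Prdm16 Cko/Cko in both groups. The knockout group (KO) was Mx1-Cre Tg/+ and the control group (WT) was Mx1-Cre +/+, and pIpC was injected 5 times in all mice. This double-stranded RNA induces type I interferon and through it the Mx1 promoter. LT-HSC (Lin- Sca-1+ c-Kit+ CD48- CD150+) were sorted 5 weeks after pIpC. Marrow from 5 mice was pooled for each genotype and sorted as 3 technical replicates, so the 3 libraries of a group are portions of 1 pool and their spread does not measure the spread between animals. The Mx1 promoter is active in many cell types that respond to interferon, so deletion was not limited to stem cells, and an effect of carrying the Cre transgene cannot be told apart from an effect of the deletion. Both groups carried the conditional alleles and received pIpC, itself an interferon inducer, and no library from untreated mice was analysed here.

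The 6 libraries held 36747729 to 43743795 reads. Prdm16 was at 40.3, 50.5 and 31.7 CPM (reads per 1000000 of effective library size) in control replicates 1, 2 and 3 and at 8.74, 9.04 and 14.7 CPM in the knockout replicates (limma, log2 fold change -1.93, SE 0.27, adjusted p = 0.00829), in the direction of the labels. Without knockout replicate 2 its adjusted p was 0.065. All 12 LT-HSC markers examined were detected and none was called, their summed level being 2608 to 2821 CPM in control and 2633 to 2896 CPM in knockout. Summed markers of several mature cell types were higher in every knockout library than in any control library. Summed neutrophil markers (12 genes, 10 called higher) were at 304 to 321 CPM in control and 1114 to 1316 CPM in knockout, with Mmp8 at 0 reads in control. Summed eosinophil markers (6 genes, 6 called higher) were at 0.624 to 0.894 CPM and 546 to 649 CPM, with Epx and Ear1 at 0 in control. Summed monocyte and macrophage markers (11 genes, 2 called higher) were at 577 to 595 CPM and 801 to 913 CPM, with Adgre1 at 0 in control. B and plasma cell markers (9 genes, 1 called higher) summed to 59.1 to 66.1 CPM and 232 to 248 CPM, and basophil and mast cell markers (7 genes, 2 called higher) to 12.9 to 18 CPM and 90.1 to 99.9 CPM, with Mcpt8, Prss34 and Ms4a2 at 0 in control and Cma1 and Tpsb2 at 0 in all 6 libraries. Endothelial (5 of 6 genes tested), erythroid (5 of 6 in the table) and T and NK cell markers (3 of 9) had 0 calls each, and the genes in the table summed to 152 to 169, 45.9 to 50.2 and 76.2 to 101 CPM in control and 222 to 306, 60.6 to 74.5 and 94.8 to 122 CPM in knockout. Stromal markers (6 genes, 1 called higher) summed to 1.22 to 3.64 CPM and 13.7 to 20.2 CPM. The part of these cells in the differences described here was not tested.

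The clusters differ in how alike their genes are, which decides how well reads can be told apart. On chromosome 5 (105012513 to 105346476, mm10, minus strand) the coding sequences were 90.0% to 98.4% identical in the 15 pairs of members, with a median of 90.7%. On chromosome 3 (142496934 to 142638008, plus strand) the 6 pairs shared 64.2% to 78.3% of aligned bases, with a median of 65.4%, and the 24 pairs across clusters shared 63.7% to 75.6%. Gbp6 and Gbp10 were the closest pair, with 1806 of 1836 aligned coding bases identical, followed at a distance by Gbp8 and Gbp11 (94.0%). The closest pair on chromosome 3 was Gbp3 and Gbp7 (78.3%).

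**Figure D1:**
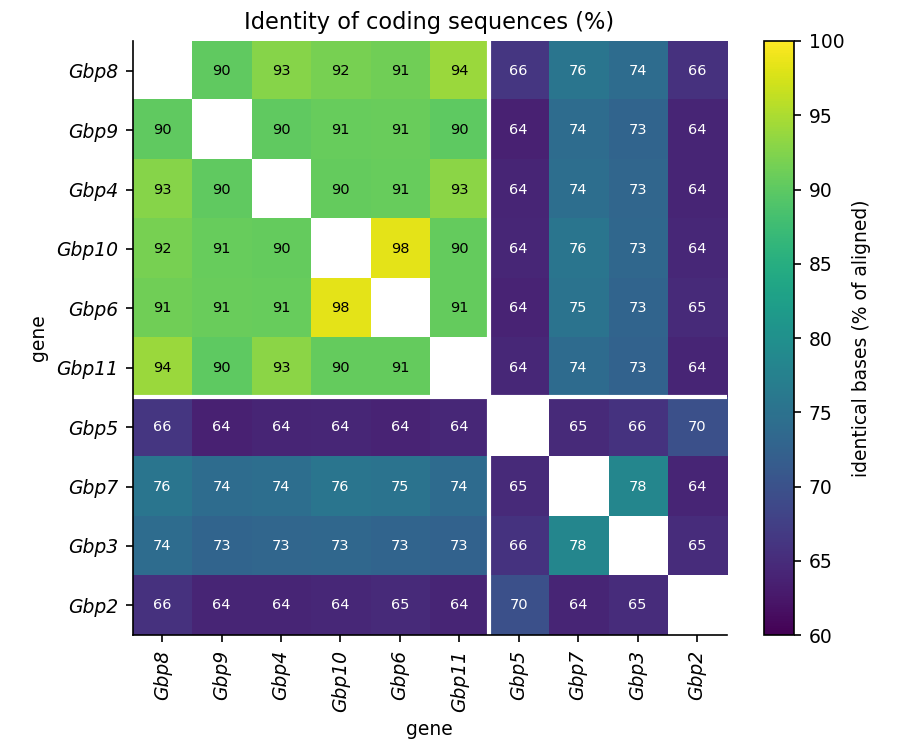
Identity of the coding sequences of the 10 guanylate-binding protein genes, in percent of aligned bases, with genes in map order and white lines between the chromosome 5 and chromosome 3 clusters. The 6 chromosome 5 genes form a block at 90.0% or more, and Gbp6 with Gbp10 stands out at 98.4%.

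The likeness is shown by the start of the GTPase domain, read from the GENCODE transcripts of GRCm38, the assembly that mm10 names. Each stretch holds 60 coding bases, 5′ to 3′, and capitals mark the codons of the P-loop, the segment that binds the phosphates of GTP. The first 6 lines are chromosome 5 genes and the last 4 chromosome 3 genes.
Gbp6: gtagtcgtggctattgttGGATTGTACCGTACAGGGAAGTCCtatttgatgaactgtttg
Gbp10: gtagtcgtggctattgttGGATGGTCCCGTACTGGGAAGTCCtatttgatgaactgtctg
Gbp4: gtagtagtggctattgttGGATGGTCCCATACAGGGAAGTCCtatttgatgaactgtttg
Gbp8: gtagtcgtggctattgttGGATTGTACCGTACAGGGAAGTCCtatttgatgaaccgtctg
Gbp9: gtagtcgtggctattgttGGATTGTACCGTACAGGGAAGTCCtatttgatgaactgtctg
Gbp11: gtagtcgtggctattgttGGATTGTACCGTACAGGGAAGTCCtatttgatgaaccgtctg
Gbp7: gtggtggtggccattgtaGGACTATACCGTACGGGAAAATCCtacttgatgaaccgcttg
Gbp3: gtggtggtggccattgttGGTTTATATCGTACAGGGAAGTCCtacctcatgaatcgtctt
Gbp2: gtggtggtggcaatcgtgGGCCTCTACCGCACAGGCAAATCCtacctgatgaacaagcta
Gbp5: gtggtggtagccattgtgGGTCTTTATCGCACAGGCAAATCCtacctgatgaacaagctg
Against Gbp6, this stretch differed at 1 base in Gbp9, 2 bases in Gbp8 and in Gbp11, and 4 bases in Gbp4 and in Gbp10. On chromosome 3 it differed at 12 bases in Gbp7, 13 in Gbp3, and 18 in Gbp2 and in Gbp5. In this segment Gbp10 was therefore no closer to Gbp6 than Gbp9 was, although it was the closest over the whole coding sequence.

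Exact repeats as long as a read would leave reads without a unique origin. Of all 75-base windows of the Gbp10 transcript, 63.9% occurred without mismatch in another member, and 62.2% occurred in Gbp6. In the Gbp6 transcript the shares were 57.2% in any other member and 51.7% in Gbp10. The other chromosome 5 members had 4.3% (Gbp9), 5.4% (Gbp4), 8.0% (Gbp8) and 10.3% (Gbp11). On chromosome 3 the shares were 2.7% for Gbp3, 1.3% for Gbp7, and 0.0% for Gbp2 and Gbp5. Counted against all GENCODE genes, the shares rose to 86.0% for Gbp6 and 75.5% for Gbp10, mostly with Gm43302 (86.0% and 73.8%), a gene model that spans both loci, and to 11.4% for Gbp7, mostly with Gm43802 (10.2%), a pseudogene model inside Gbp7. No gene ID of the deposited table matched either symbol. Gbp2 (1.0%) and Gbp5 (0.1%) shared little, and the other 5 members kept the shares above. The sources used here do not state the gene models counted, the read length or the treatment of reads that overlap several genes or map to several places, so the split of reads between Gbp6 and Gbp10 is uncertain and their sum is given as well. The sum does not settle whether reads of either were left uncounted. Gbp11 is annotated as a transcribed pseudogene in RefSeq and as a polymorphic pseudogene in GENCODE.

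Levels of all 10 members were above the filter on low values, 1 CPM in at least 3 of 6 libraries, and 9 of them reached 1 CPM in all 6. Differences below are log2 fold changes of knockout against control with their standard error (SE) from a limma fit to all 13018 tested genes, in which a gene was called at a Benjamini-Hochberg adjusted p below 0.05. Of the tested genes 91, or 0.699%, were called. Among them 38, or 0.292% of those tested, were called lower in knockout and 53, or 0.407%, higher. Control levels lay wholly above knockout levels in 8.01% of tested genes and wholly below them in 8.52%. Of the chromosome 5 members 2 of 6 were called lower and 5 of 6 had no overlap between groups, and of the chromosome 3 members 0 of 4 were called and 0 of 4 were without overlap. The count of 2 called became 3 without control replicate 1, 1 without control replicate 3 or knockout replicate 1, and 0 without knockout replicate 2. Because these genes were chosen from this contrast, nothing is read from those counts.

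Gbp4 (gene ID 17472, 105115767 to 105139586), a protein reported in the mouse to restrain Irf7 and so the type I interferon response, had the lowest ratio of knockout to control means in the family. Positions given with each gene are those of mm10, on the chromosome of its cluster. Its level was 90.4, 66.5 and 53.2 CPM in control replicates 1 to 3 and 11.6, 22.5 and 23.1 CPM in the knockout replicates. Every knockout library was below every control library, and knockout replicate 1 was the lowest. Means were 70.0 ± 18.9 CPM for control and 19.0 ± 6.47 CPM for knockout (SD, n = 3 each), a ratio of 0.272. The log2 fold change was -1.91 (SE 0.29). As in all bulk samples, fewer cells with a transcript and less of it per cell cannot be told apart.

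Gbp6 and Gbp10 have both been tied to defence against intracellular bacteria in macrophages. Gbp6 (gene ID 100702, 105270702 to 105295871) was the most abundant member of its cluster, at 94.5, 72.5 and 77.8 CPM in control and 31.1, 30.3 and 42.9 CPM in knockout. The groups did not overlap, and the knockout mean was 0.426 of the control mean (log2 fold change -1.24, SE 0.18).

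Gbp10 (gene ID 626578, 105215699 to 105239533) was the lowest member, with 587, 413 and 392 reads in control and 12, 245 and 167 in knockout. In CPM this was 14.5, 11.2 and 8.99 against 0.325, 5.71 and 3.82. All knockout libraries were below all control libraries, and replicate 1 of the knockout was far below the other two. The log2 fold change was -2.54 (SE 0.90) and rested on that library: without it the value was -1.28, beside -1.59 for Gbp4 and -1.85 for Gbp9. The ratio of means was 0.284.

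Summed over the near-identical pair, Gbp6 and Gbp10 gave 109, 83.7 and 86.8 CPM in control and 31.4, 36.0 and 46.7 CPM in knockout. The sum was 0.408 of control and its groups did not overlap. Per Gbp6 read there were 0.154, 0.155 and 0.116 Gbp10 reads in control. In knockout the ratio was 0.0104, 0.188 and 0.0891, so the knockout libraries lay both above and below the control range.

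Gbp8 (gene ID 76074, 105012513 to 105053609) had 63.7, 40.4 and 40.0 CPM in control and 10.8, 24 and 23.4 CPM in knockout. The groups were apart, with control replicate 1 the highest and knockout replicate 1 the lowest. Its log2 fold change was -1.36 (SE 0.32).

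Gbp9 (gene ID 236573, 105076464 to 105110357), found at the vacuole of the parasite Toxoplasma in mouse cells, had 18.6, 36.2 and 27.7 CPM in control and 12.8, 8.25 and 6.57 CPM in knockout. Here too the groups were apart, but knockout replicate 1 was the highest of its group and control replicate 1 the lowest of its own, the opposite of Gbp4 and Gbp8. Its log2 fold change was -1.58 (SE 0.33).

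Gbp11 (gene ID 634650, 105323026 to 105346476), the annotated pseudogene, had 20.5, 16.2 and 19.9 CPM in control and 16.8, 11.6 and 7.16 CPM in knockout. Knockout replicate 1 lay inside the control range, so the groups overlapped. It had the smallest difference of its cluster, a log2 fold change of -0.75 (SE 0.32). Over the 6 chromosome 5 members the median log2 fold change was -1.47, beside 0.003 over all tested genes, and 5 of the 6 were at or below -1, as were 3.39% of tested genes.

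The chromosome 3 members showed no such separation. Gbp2 (gene ID 14469, 142620663 to 142638008) gathers at Toxoplasma vacuoles and on cytosolic bacteria and carries a lipid anchor, as does Gbp5. Its level was 96.6, 139 and 116 CPM in control and 114, 83.3 and 115 CPM in knockout. The groups overlapped, with a log2 fold change of -0.17 (SE 0.17) and a 95% interval from the limma fit of -0.54 to 0.2.

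Gbp5 (gene ID 229898, 142496934 to 142522344), which promotes inflammasome assembly, had 28.0, 23.9 and 16.1 CPM in control and 21.5, 20.0 and 34.7 CPM in knockout. The highest and the lowest library were both replicate 3, of knockout and of control, and the groups overlapped. The log2 fold change was 0.16 (SE 0.28, interval -0.47 to 0.78), and its sign turned without either of those libraries, to -0.07 without control replicate 3 and -0.09 without knockout replicate 3.

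Gbp7 (gene ID 229900, 142530336 to 142550151), tied in the mouse to delivery of the NADPH oxidase and of autophagy components to bacteria, had the most reads of all members. It was at 214, 214 and 220 CPM in control and 249, 219 and 288 CPM in knockout. Control libraries were tightly grouped, with an SD of 3.24 CPM against 34.5 CPM in knockout, and knockout replicate 2 fell inside their range. The log2 fold change was 0.21 (SE 0.10, interval -0.02 to 0.44).

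Gbp3 (gene ID 55932, 142560016 to 142573213), which also reaches Toxoplasma vacuoles, had 95.1, 71.4 and 82.3 CPM in control and 63.1, 82.4 and 75 CPM in knockout. The groups overlapped, and the log2 fold change was -0.17 (SE 0.15, interval -0.51 to 0.16). The median log2 fold change of the 4 chromosome 3 members was -0.01. On the log2 scale the intervals reach down to -0.54 in Gbp2, -0.51 in Gbp3 and -0.47 in Gbp5. They reach up to 0.78 in Gbp5 and 0.44 in Gbp7. These intervals rest on portions of 1 pool per genotype, so they leave out the spread between animals. Gbp2b, a further gene of the chromosome 3 cluster that is not among the 10, had 14 reads in control replicate 1 and 0 reads in the other 5 libraries, and was not tested.

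**Figure D2:**
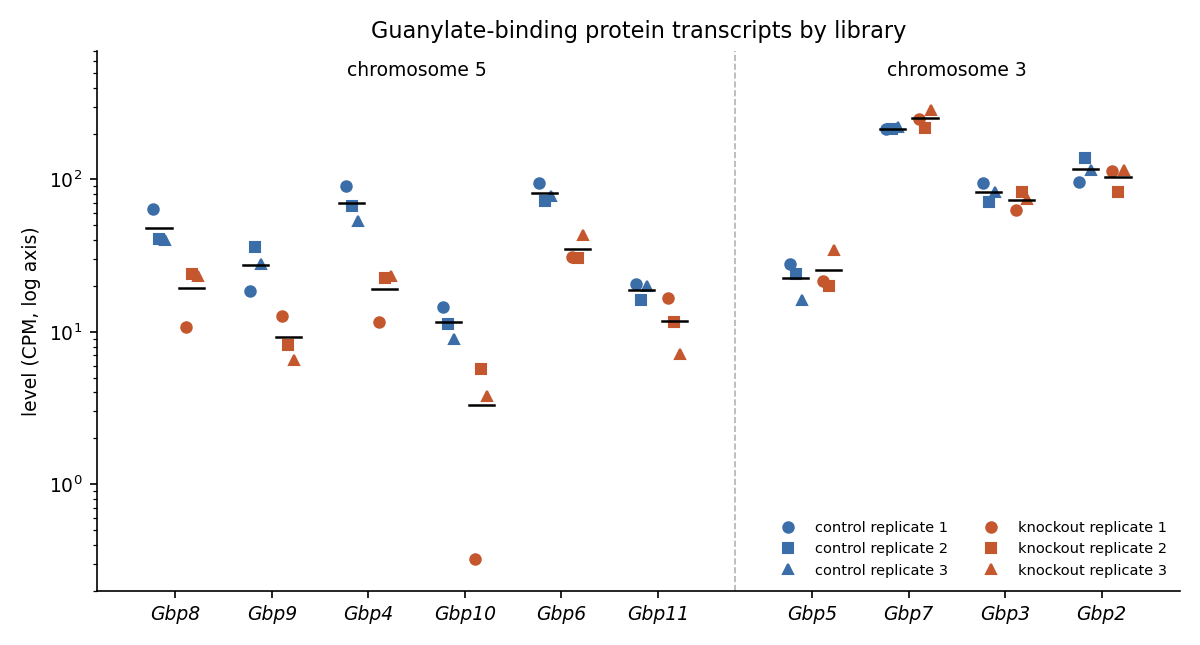
Levels in CPM (reads per 1000000, log axis) of the 10 genes in each library, in map order, with control in blue, knockout in orange, a marker shape for each replicate and a bar at the group mean. For Gbp4, Gbp6, Gbp8, Gbp9 and Gbp10 all knockout points lie below all control points, Gbp10 of knockout replicate 1 at 0.325 CPM, and on chromosome 3 the groups overlap.

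Set against each other within a library, the clusters give a ratio that does not depend on library scaling. The summed chromosome 5 members were at 302, 243 and 228 CPM in control and 83.4, 102 and 107 CPM in knockout. The summed chromosome 3 members were at 434, 448 and 434 CPM in control and 447, 405 and 512 CPM in knockout. The first sum was 0.379 of control and its groups were far apart, and the second was 1.04 of control with overlapping groups.

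For each chromosome 3 read there were 0.696, 0.542 and 0.524 chromosome 5 reads in control and 0.187, 0.253 and 0.209 in knockout. On the log2 scale the ratio averaged -0.78 ± 0.22 in control and -2.22 ± 0.22 in knockout (SD, n = 3 each), a difference of -1.44. Leaving out any 1 library moved the difference only between -1.56 and -1.32. With the most abundant member of each cluster, Gbp6 and Gbp7, left out it was -1.35. The remaining members were chosen from the same contrast, so this value too is a description.

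**Figure D3:**
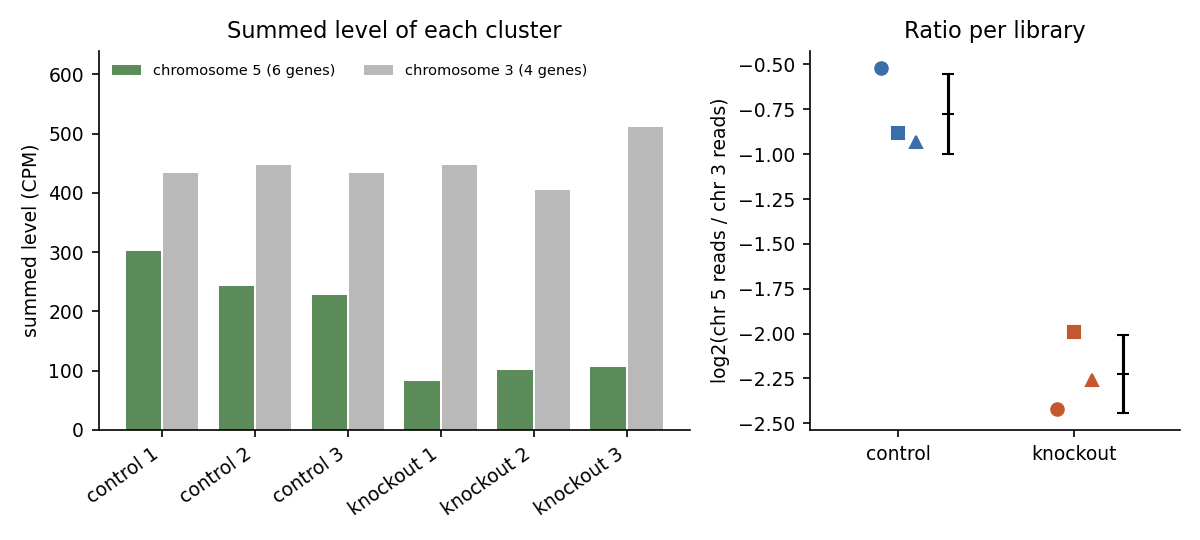
Left, summed level of the 6 chromosome 5 genes and of the 4 chromosome 3 genes in CPM in each library. Right, log2 of chromosome 5 reads over chromosome 3 reads per library, with the mean and SD of each group (n = 3): control libraries lie at -0.93 to -0.52 and knockout libraries at -2.42 to -1.99.

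The make-up of each cluster is given by the shares of its members. Gbp6 gave the largest mean share of chromosome 5 reads in both groups, 31.8% in control and 35.7% in knockout. Gbp4 gave 26.9% and 19.1%, Gbp8 18.4% and 19.4%, and Gbp9 11.1% and 9.86%. Gbp11 gave 7.4% and 12.7%, but in knockout its share ran from 6.7% in replicate 3 to 20.1% in replicate 1. On chromosome 3, Gbp7 gave 49.3% and 55.4%, Gbp2 26.6% and 22.8%, Gbp3 18.9% and 16.4%, and Gbp5 5.16% and 5.5%.

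Levels of different genes are comparable only per transcript length. In CPM per kilobase of the chosen GENCODE transcript, the control order was Gbp2 (46.5), Gbp7 (38.5), Gbp6 (31.3), Gbp3 (30.9), Gbp8 (19.5), Gbp4 (15.4), Gbp5 (7.41), Gbp11 (7.01), Gbp9 (6.28) and Gbp10 (3.28). Neighbours in this order overlapped between libraries except Gbp7 with Gbp6, Gbp3 with Gbp8, Gbp4 with Gbp5, and Gbp9 with Gbp10. In knockout the order was Gbp7 (44.9), Gbp2 (41.3), Gbp3 (27.4), Gbp6 (13.3), Gbp5 (8.31), Gbp8 (7.89), Gbp11 (4.40), Gbp4 (4.20), Gbp9 (2.10) and Gbp10 (0.931). There the neighbours without overlap were Gbp2 and Gbp3, Gbp3 and Gbp6, and Gbp6 and Gbp5. Thus Gbp6 and Gbp3 had overlapping levels per kilobase in control and separate ones in knockout. The places of Gbp6 and Gbp10 in both orders depend on how reads shared between genes were counted, which is not stated. The order also depends on the transcript used. With the shortest principal transcript of each gene, Gbp7 (2497 bases in place of 5614) was at 86.6 in control and 101 in knockout, above all others. Control levels then were 30.0 for Gbp8, beside 31.5 for Gbp3, 14.2 for Gbp11 and 10.2 for Gbp9.

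Genes beside the clusters are described as well, and whether a difference reached along the chromosome was not tested. Abcg3, an ABC transporter gene 29702 bases before the chromosome 5 cluster, was at 89.3, 88.5 and 69.4 CPM in control and 52.0, 45.1 and 39.9 CPM in knockout. Its groups did not overlap, and it fell by 0.85 on the log2 scale (SE 0.16, limma adjusted p = 0.0466). That call was lost without any 1 of the 6 libraries, at an adjusted p of 0.0517 to 0.206.

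Farther out on that side, Zfp951, Zfp33b and Thoc2l had log2 fold changes of 0.31, -0.05 and -0.2 and overlapping groups. After the cluster came genes of the Lrrc8 family, subunits of volume-regulated anion channels. Lrrc8b, 68730 bases away, had a log2 fold change of -0.02 with overlapping groups. Lrrc8c was at 86.0, 93.1 and 70.4 CPM in control and 58.8, 52.1 and 59.4 CPM in knockout, without overlap but not called (-0.54, SE 0.14, adjusted p = 0.194). Lrrc8d, also without overlap, had -0.3 (SE 0.11, adjusted p = 0.402), and Rps15a-ps5 had -0.04. Abcg3 before the cluster and Lrrc8c and Lrrc8d after it thus had every knockout library below every control library. That also held for 8.01% of all tested genes, and Lrrc8c and Lrrc8d were not called. Lrrc8b, between Gbp11 and Lrrc8c, was at 26.6, 27.6 and 22.3 CPM in control and 23.0, 26.2 and 25.8 CPM in knockout.

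Around the chromosome 3 cluster 0 of the 8 nearest tested genes were called. Eif4e, Tspan5, Rap1gds1, Pdlim5, Kyat3, Gtf2b and Pkn2 had log2 fold changes from -0.13 to 0.27. Of these only Rap1gds1 had groups apart, higher in knockout (0.27, SE 0.13, limma adjusted p = 0.507). Its control replicate 1 and knockout replicate 2 were both at 91.2 CPM after rounding. Before the cluster the nearest, Pdlim5, lay 101215 bases away and the other 3 lay 3421706 to 3937238 bases away, far beyond any neighbour on chromosome 5, so that side was sampled thinly. The eighth, 9530052C20Rik, had -2.12 (SE 0.79, adjusted p = 0.382) with overlapping groups, at 3.54, 12.6 and 6.92 CPM in control and 1.43, 4.66 and 0.549 CPM in knockout.

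**Figure D4:**
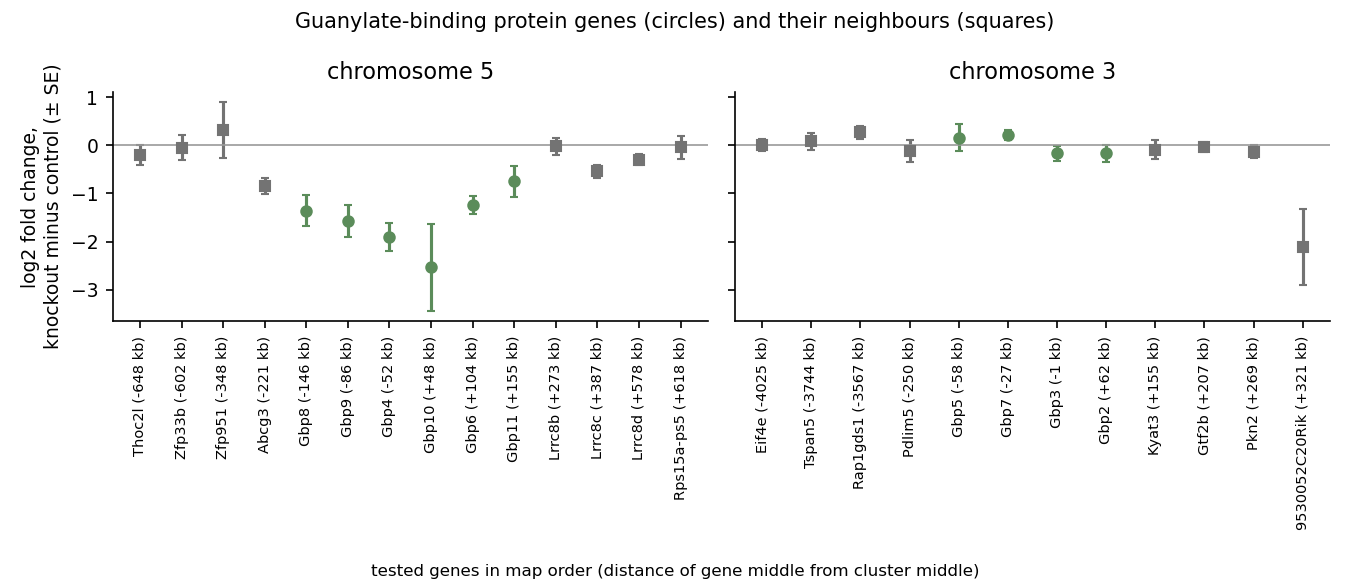
Log2 fold change of knockout against control with its SE for the guanylate-binding protein genes (green circles) and the 4 nearest tested genes on each side (grey squares), in map order, with the distance of each gene's middle from the middle of its cluster. On chromosome 5 the 6 members lie between -2.54 and -0.75 with Abcg3 at -0.85 beside them, and on chromosome 3 the 4 members lie between -0.17 and 0.21.

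Interferon-linked promoter sequence is shown for the chromosome 3 members, for which the RefSeq table of GRCm38.p6 held the bases before the start site. Gbp4, Gbp6, Gbp8, Gbp9, Gbp10 and Gbp11 had no entry. Each line gives positions -180 to -1 from the start site, 5′ to 3′, with capitals marking the core of the interferon-stimulated response element (ISRE: GAAA, any 2 bases, GAAA) and the gamma-activated site (GAS, TTCNNNGAA), searched on both strands.
Gbp5 (chr3:142496754-142496933, plus strand): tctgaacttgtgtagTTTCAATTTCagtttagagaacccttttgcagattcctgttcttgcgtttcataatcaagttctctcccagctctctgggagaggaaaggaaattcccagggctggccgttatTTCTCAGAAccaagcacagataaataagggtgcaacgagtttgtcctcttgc
Gbp7 (chr3:142530156-142530335, plus strand): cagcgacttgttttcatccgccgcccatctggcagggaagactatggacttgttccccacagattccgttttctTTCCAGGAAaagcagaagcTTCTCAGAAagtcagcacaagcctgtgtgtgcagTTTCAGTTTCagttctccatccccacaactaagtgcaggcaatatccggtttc
Gbp3 (chr3:142559864-142560043, plus strand): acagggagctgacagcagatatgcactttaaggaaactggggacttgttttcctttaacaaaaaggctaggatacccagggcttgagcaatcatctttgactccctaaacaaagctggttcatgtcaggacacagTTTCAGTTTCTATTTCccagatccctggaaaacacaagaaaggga
Gbp2 (chr3:142620483-142620662, plus strand): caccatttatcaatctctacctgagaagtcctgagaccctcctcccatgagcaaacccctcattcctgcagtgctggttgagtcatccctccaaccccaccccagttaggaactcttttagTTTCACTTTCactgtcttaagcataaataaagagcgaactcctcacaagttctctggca
Searched from 250 bases before to 50 after the start, 4 of 4 genes held an ISRE core, as did 3.4% of the 32851 RefSeq promoters. It began at -165 in Gbp5, -53 in Gbp7 and -59 in Gbp2. Gbp3 held a pair that overlap, at -45 and -39, before the start shown and none before its other start. A GAS, found in 8.3% of promoters, lay at -245 and -52 in Gbp5 and at -106 and -87 in Gbp7. These are matches of letters, not sites of binding.

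Other genes of the interferon system give the setting of the family. These lists were also drawn up with results of these data known, and their members are described by counts beside the median of 0.003 over all tested genes. Of 7 interferon receptors and kinases 0 were called, with a median log2 fold change of -0.17. Jak1, the kinase shared by both interferon receptors, was at 508 ± 14.7 CPM in control and 455 ± 40.4 CPM in knockout, and Ifnar2, a chain of the type I receptor, at 144 ± 15.6 and 124 ± 6.46 CPM. Neither was called, at adjusted p = 0.488 and 0.552.

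Among 6 interferon transcription factors 1 was called, and the median was -0.08. Irf8, a factor of myeloid cells, rose from 3.83 ± 1.78 to 22.5 ± 9.53 CPM (log2 fold change 2.58, SE 0.44, limma adjusted p = 0.0315), a call kept in 1 of the 6 fits that each left out a library. Irf1, which acts at guanylate-binding protein promoters, was at 218, 226 and 228 CPM in control and 166, 196 and 184 CPM in knockout. Its groups were apart, with a log2 fold change of -0.3 (SE 0.09), but it was not called (adjusted p = 0.264).

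Of 15 interferon-gamma targets tested outside the family, 0 were called by limma, 2 were above 0 and the median was -0.18. Below 0 were 6438 of all 13018 tested genes. H2-Aa, a chain of MHC class II, was at 230 ± 5.52 CPM in control and 179 ± 22.8 CPM in knockout (log2 fold change -0.37, adjusted p = 0.233). Cxcl10, a chemokine, was at 6.23 ± 3.72 and 15.1 ± 3.46 CPM (1.41, adjusted p = 0.264). Of 9 immunity-related GTPases, the other large set of interferon-inducible GTPases, 0 were called, with a median of -0.21. Tgtp2 was at 155 ± 9.31 and 131 ± 2.66 CPM and Iigp1 at 167 ± 19.5 and 138 ± 10.4 CPM, with adjusted p = 0.414 and 0.441. Their log2 fold changes were -0.24 and -0.27, and the list ran from -0.75 (F830016B08Rik, overlapping groups) to 0.25 (Gm12250), both named for being its ends.

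Type I interferon targets, a list also chosen with results known, lay on the other side. All 16 had a log2 fold change above 0, with a median of 0.49, and 2 were called higher. Of all 13018 tested genes 6438 were below 0 and 0.407% were called higher. Irf7, the factor that Gbp4 is reported to restrain, rose from 38.5 ± 0.785 to 64.5 ± 2.16 CPM (0.74, SE 0.13, limma adjusted p = 0.0368). A link to the lower Gbp4 was not tested. The Irf7 call was lost when any 1 library was left out. Ifi27l2a rose from 2.64 ± 2.12 to 15.8 ± 2.06 CPM (2.85, SE 0.51, limma adjusted p = 0.0393), a call kept in 1 of 6 such fits. Of 6 feedback inhibitors 0 were called, with a median of 0.24. Usp18 was at 31.4 ± 1.75 and 42.4 ± 0.249 CPM and Socs1 at 11.5 ± 3.14 and 19.5 ± 5.17 CPM.

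Partners of the family in membrane remodelling and cell death were also counted. Of 8 other dynamin-like GTPases tested 0 were called, with a median of 0.14. Mx1 and Mx2 had log2 fold changes of 1.13 and 1.01 at limma adjusted p = 0.432 and 0.447. Of 8 inflammasome and pyroptosis genes 0 were called, with a median of -0.08. Ninj1, which ruptures the plasma membrane in dying cells, was at 242 ± 8.39 CPM in control and 183 ± 5.74 CPM in knockout (-0.4, adjusted p = 0.0659), and Il1b at 1.16 ± 0.259 and 3.6 ± 0.983 CPM (adjusted p = 0.384). Of 10 autophagy genes 0 were called, with a median of -0.04. Atg7, which activates the ubiquitin-like proteins of autophagy, was at 69.8 ± 5.83 and 41.5 ± 4.52 CPM (-0.75, adjusted p = 0.0583), and Map1lc3b at 313 ± 9.1 and 277 ± 9.71 CPM (adjusted p = 0.437).

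**Figure D5:**
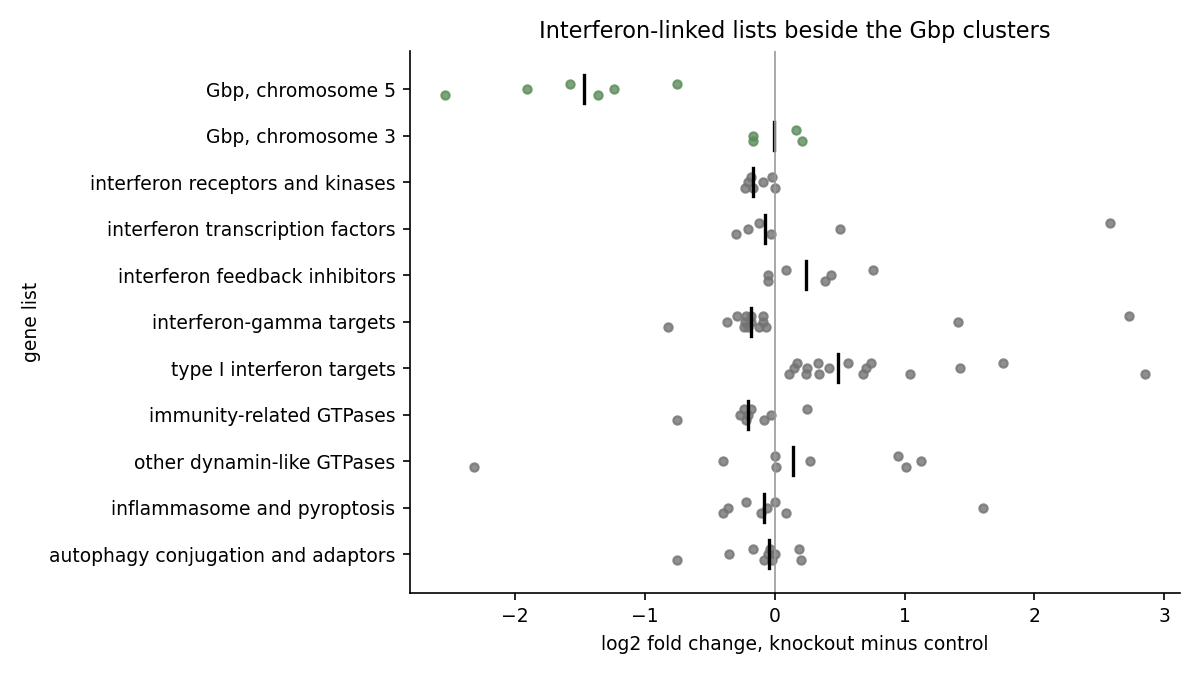
Log2 fold change of knockout against control for the tested genes of each list, 1 point per gene, with a black bar at the list's median. The chromosome 5 guanylate-binding protein genes have a median of -1.47 and the chromosome 3 genes -0.01, interferon-gamma targets lie at -0.18 and type I interferon targets at 0.49.

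The genes that followed the chromosome 5 members most closely were found by Pearson's r over the 6 libraries with the mean standardized log2 value of those members. That mean was 0.94, 0.69 and 0.66 in control and -0.99, -0.56 and -0.75 in knockout, so a gene that separates the groups follows it to some degree. Among 6493 genes outside the family at or above the median level, 159 had r of at least 0.9. Selplg, the ligand of P-selectin, had r = 0.995, Creg1 0.992, Ly6e, a membrane protein induced by interferon, 0.992, Fam122a 0.991, and Myl10, a myosin light chain, 0.989. These are descriptions over 6 libraries that share depth and group. Selplg (113817798 to 113832528) and Myl10 (136688892 to 136701857) lie on chromosome 5, outside the cluster, and Creg1, Ly6e and Fam122a on other chromosomes. A part of map position was not tested.

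Selplg, Creg1, Ly6e and Fam122a had log2 fold changes of -0.33, -0.2, -0.1 and -0.33, smaller in size than that of any chromosome 5 member, and none was called. Selplg was at 102 ± 2.04 CPM in control and 81.6 ± 2.77 CPM in knockout, and Ly6e at 1335 ± 6.8 and 1244 ± 16.3 CPM. Of the 5, Myl10 alone was called, at 365, 349 and 350 CPM in control and 154, 183 and 146 CPM in knockout (log2 fold change -1.15, SE 0.10, limma adjusted p = 0.000359), a call kept when any 1 library was left out.

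Within a group, the order of the libraries was not the same for all chromosome 5 members. The libraries of a group are portions of 1 pool, so these orders do not show how the genes vary between animals. Control replicate 1 was the highest control library for 5 of the 6, Gbp9 being the exception. Knockout replicate 1 was the lowest of its group for Gbp4, Gbp8 and Gbp10 and the highest for Gbp9 and Gbp11. The coefficient of variation among knockout libraries ran from 20.3% for Gbp6 to 83.2% for Gbp10 on chromosome 5, and from 13.3% for Gbp3 to 31.8% for Gbp5 on chromosome 3.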

How the data were processed

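The deposited table holds log2 values, made by the authors with HISAT2, featureCounts and limma on mm10 after FastQC, per the submitters' processing notes. The sources used here do not state versions, strand setting or multiple-mapping treatment. Each value matches log2 CPM after an offset of 0.5 reads. Undoing that gave whole reads within 0.01 for 100.0% of values, and CPM in the text are these reads scaled by effective library size. RefSeq GRCm38.p6 matched 25275 gene IDs and left 1904.

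Genes with a deposited log2 value of at least 0 (1 CPM, offset included) in at least 3 libraries were tested, 13018 in all, and without the offset the same limit leaves 13014. The offset form was taken once both numbers were known, to match earlier work on these data. The fit used limma 3.58.1 (lmFit and eBayes with a trend, no block) under R 4.3.3, on the deposited values, with Benjamini-Hochberg adjustment. Library pairs differed beyond sampling noise, with chi-square per degree of freedom from 42.4 to 94.3. P-values measure the spread between portions of 1 pool per genotype.

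Members and gene lists were chosen with earlier results of these data known. Named besides the members were Prdm16, up to 4 tested neighbours on each side of a cluster, up to 2 genes per list by smallest adjusted p, and the 5 genes most like the chromosome 5 members. Identity was computed on GENCODE M21 coding sequences. Alternatives were no filter, 5 CPM, median centring, quantile normalization, log2(CPM + 1), no trend, voom, a replicate block and fits that each omit 1 library. For genes outside the family they were followed after the data were seen. Figures used matplotlib 3.10.9.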

Additional observations from a re-analysis of the deposited data

How the results depend on the processing

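The difference in the log2 ratio of the clusters was -1.44, -1.57 with the mean of the members' log2 values, and -1.56 to -1.32 without 1 library. All 6 chromosome 5 members stayed below 0 in every setting, with a median of -1.54 to -1.22. Genes called higher (53) numbered 83 with no filter and 105 with log2(CPM + 1), and 20 to 64 without 1 library. Genes called lower (38) numbered 59 with log2(CPM + 1), 15 with no trend, and 19 to 28 without 1 library. Members called lower (2) were 0 with no trend and 0 to 3 without 1 library. With the replicate block, 23 genes and 1 member were called lower. Same-numbered libraries had correlations of deviations of -0.01, -0.02 and 0.02. These gave no sign of pairing over all tested genes, but they could miss pairing that touches only part of the genes. Without 1 library, log2 fold changes near 0 changed sign: Gbp5 -0.09 to 0.33, Lrrc8b -0.11 to 0.04, Rps15a-ps5 -0.16 to 0.08, Zfp951 -0.47 to 0.7, Pdlim5 -0.35 to 0.04, Zfp33b -0.23 to 0.08, Tspan5 -0.01 to 0.24 and Kyat3 -0.25 to 0.07. The Prdm16 call was lost with no trend (0.0967), and that of Abcg3 also with no trend (0.209), no filter (0.0563) and the block (0.0576). The causes were not tested. Depth limits Gbp10, at 12 reads in knockout replicate 1, and sequence likeness and the overlapping model Gm43302 limit its separation from Gbp6.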

Other observations

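Other annotation bears on how reads of the chromosome 5 members were assigned. In GENCODE, exons of Gbp4 and Gbp8 have 61 bases in common, those of Gbp4 and Gbp9 60, and those of Gbp8 and Gbp9 60. With windows of 50 bases in place of 75, the share found in another member was 73.9% for Gbp10, 70.3% for Gbp6, 21.2% for Gbp8, 19.2% for Gbp11, 12.8% for Gbp4 and 9.6% for Gbp9, and 4.8% for Gbp3, 2.3% for Gbp7, and 0.0% for Gbp2 and Gbp5 on chromosome 3. Over all GENCODE genes the shares at 50 bases were 90.2% for Gbp6 and 82.5% for Gbp10, mostly with Gm43302, and 12.8% for Gbp7, mostly with Gm43802.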
